A study of Mus musculus with 6 samples.

Results

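The genes described here encode the keratin-associated proteins, the Krtap family, in mouse skin. They were chosen by name and level, as protein-coding genes whose symbol begins with Krtap and whose mean over the 6 libraries was at least 0.1 FPKM. FPKM is a fragment count scaled by exon length and library size. Of 57 protein-coding Krtap genes, 56 met this, and they are 56 of 28389 genes at that level and of 54146 gene IDs in the files. The 56 members fall into 27 subfamilies, named by the number before the dash. The lowest 2 inside the limit were Krtap4-13 with 3.47 FPKM and Krtap20-2 with 4.40 FPKM on average. The single gene outside it, Krtap13, had a mean of 0.0145 FPKM and was above 0 in 1 library only, CRS replicate 2. Every member was above 0.1 FPKM in each of the 6 libraries, so no member entered through 1 group alone.

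Skin RNA was sequenced from 3 mice that had undergone chronic restraint stress (CRS) for 12 weeks and from 3 control mice (CON). Restraint, the repeated holding of an animal in a narrow space, is used to model psychological stress, and the study's title names the non-coding RNA Mir17hg and pigment production as its subject. The sources used here do not give sex, age, strain, genotype, body site or hair cycle stage. Whole skin holds follicles, epidermis, dermis, fat and muscle together. In these libraries a difference in the number of hair-forming cells and one in Krtap RNA per cell therefore cannot be told apart.

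A hair shaft is built by cells of the follicle that fill with hair keratin filaments and then with keratin-associated proteins. These small proteins form the matrix between the filaments and are cross-linked to them by disulfide bonds, which gives hair its stiffness. They are grouped by composition into high-sulfur and ultra-high-sulfur proteins, both rich in cysteine, and high glycine-tyrosine proteins. The hair keratins are made first as a cell leaves the dividing matrix of the bulb, and most keratin-associated proteins are made later and higher in the shaft. The genes lie in clusters and are transcribed in a growing follicle, so their RNA in skin is known to vary with the hair cycle.

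Libraries held 13.3 to 25.7 M fragments, recovered from the FPKM values. CON replicate 1 stood apart from the other 5 libraries. Its 8 skeletal muscle markers summed to 11283 FPKM against 323 to 2300 FPKM elsewhere, its 13 mitochondrially encoded protein genes to 118144 FPKM against 15344 to 30193 FPKM, and its 6 dermal fibroblast markers to 234 FPKM against 803 to 1277 FPKM. It also held Xist at 2.80 FPKM, against 0.022 to 0.168 FPKM in the others. The Y-linked gene Ddx3y read 22.5 FPKM there, within the 8.68 to 32.7 FPKM of the others, so Y-linked RNA was present in every library. With Xist beside Ddx3y, whether CON replicate 1 holds RNA of 1 mouse is in doubt. Of the follicle and skin marker lists, no marker was at 0 in any library. Since it was also the lowest library for nearly every Krtap gene, the summed level, the family, class and main chromosome medians and each member's log2 fold change that is printed with a standard error are given without it too. Ranges of fold changes within a subfamily are given with it only.

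The sequences before the start sites of 8 members are shown first, because these members carry the differences between mice described below and because nearly the whole family shares a short element there. Of the 56 members, 50 matched a RefSeq promoter by symbol in the build GRCm38.p6. Each line gives the 120 bases just before the annotated start, 5′ to 3′ on the gene's strand, with TATAAA or TATATAAG in capitals. Krtap8-1 is the most abundant member; Krtap1-4, Krtap3-1 and Krtap16-1 were the members highest in CRS replicate 2; Krtap5-2, Krtap31-1 and Krtap31-2 were among those lowest there relative to CRS replicate 1; Krtap15 carries the longer form of the element.
Krtap8-1 (chr16:89487953-89488072, minus strand): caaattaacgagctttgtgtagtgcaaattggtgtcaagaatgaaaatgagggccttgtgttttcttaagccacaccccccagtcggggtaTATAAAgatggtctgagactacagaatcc
Krtap1-4 (chr11:99583678-99583797, minus strand): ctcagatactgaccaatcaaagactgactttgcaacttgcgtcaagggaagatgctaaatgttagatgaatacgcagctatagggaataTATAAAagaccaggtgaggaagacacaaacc
Krtap3-1 (chr11:99566631-99566750, minus strand): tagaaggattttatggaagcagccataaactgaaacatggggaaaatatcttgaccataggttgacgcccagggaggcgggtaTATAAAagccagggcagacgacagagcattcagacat
Krtap16-1 (chr11:99986594-99986713, minus strand): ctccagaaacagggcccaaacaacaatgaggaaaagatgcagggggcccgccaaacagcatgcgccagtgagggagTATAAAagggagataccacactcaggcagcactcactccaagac
Krtap5-2 (chr7:142176006-142176125, minus strand): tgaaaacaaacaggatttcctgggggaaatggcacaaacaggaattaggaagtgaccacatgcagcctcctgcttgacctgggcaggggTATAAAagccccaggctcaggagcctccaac
Krtap31-1 (chr11:99907800-99907919, plus strand): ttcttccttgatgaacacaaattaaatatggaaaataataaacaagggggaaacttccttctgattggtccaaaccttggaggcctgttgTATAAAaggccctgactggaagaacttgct
Krtap31-2 (chr11:99936171-99936290, plus strand): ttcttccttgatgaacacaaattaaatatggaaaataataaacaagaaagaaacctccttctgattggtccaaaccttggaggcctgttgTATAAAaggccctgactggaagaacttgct
Krtap15 (chr16:88828889-88829008, plus strand): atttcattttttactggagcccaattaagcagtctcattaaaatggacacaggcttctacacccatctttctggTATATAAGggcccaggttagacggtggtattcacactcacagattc

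The letters in capitals are those of a TATA box, the element to which the general transcription machinery binds a short way before a start site. Searched on both strands over 250 bases, TATAAA stood before 40 of the 50 members (80%), against 12.4% of all 32851 promoters in the table. On the gene's own strand with its first base 20 to 40 bases before the start, it was found in 31 of 50 (62%) against 1.99% of all promoters. After the members without TATAAA were read, TATATAAG was added to the search. On the gene's strand over 250 bases, 7 of 50 (14%) held it, against 0.642% of all. All 7 lacked TATAAA on that strand, which follows in part from how the form was chosen. These were Krtap3-3, Krtap14, Krtap15 and the Krtap19 genes 19-1, 19-2, 19-3 and 19-4. Either form on the gene's strand was found in 47 of 50 (94%) against 8.20%, and the 3 without it were Krtap5-3, Krtap5-4 and Krtap27-1. Since the longer form was picked from these same promoters, its shares and the 94% are a description only. Neighbouring copies share these stretches by descent, so the 50 are not independent.

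Of the other motifs searched on both strands over 250 bases, CTTTGAA, which resembles the site of the Lef1 family, occurred in 7 of 50 members (14%) against 4.46% of all promoters. AGATAA, a site of the GATA type, occurred in 11 (22%) against 9.99%. CGTAAA was found in 1 (2%) against 2.61%, and CAATAAA in 0 against 4.20%. A match is only these letters in this window. The promoters of Krtap31-1 and Krtap31-2 differed at 4 of the 120 bases shown, an identity of 96.7%.

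Every Krtap member had a higher mean log2 level in CRS than in CON, but no single member passed the test across all genes. The level of all 56 members summed to 16096, 59448 and 26623 FPKM in CON replicates 1 to 3 and to 78126, 44758 and 127610 FPKM in CRS replicates 1 to 3. The means were 34056 ± 22612 (SD, n = 3) in CON and 83498 ± 41686 (SD, n = 3) in CRS, a ratio of 2.45. Without CON replicate 1 the control mean was 43035.5 and the ratio 1.94. The groups overlapped, since CRS replicate 2 lay below CON replicate 2. Values below are given in this order of replicates.

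By fragments, the members took 1.05% (95% Wilson interval 1.05% to 1.06%), 3.90% (3.89% to 3.91%) and 1.78% (1.77% to 1.78%) of the CON libraries. They took 5.05% (5.04% to 5.06%), 3.04% (3.03% to 3.05%) and 8.27% (8.26% to 8.28%) of the CRS libraries. These intervals cover counting error only, and the spread between mice was far wider. Because FPKM is a share of a library, a gene's value also depends on how much of it muscle, mitochondrial or other RNA takes. Scaled by median ratios, the sums were 13954, 58491 and 24314 FPKM in the controls and 82956, 41403 and 166776 FPKM under CRS, in the same order of libraries. The factor by which values were divided was largest in CON replicate 1, at 1.15, and smallest in CRS replicate 3, at 0.765. Scaling therefore lowered the Krtap sum of CON replicate 1 and raised that of CRS replicate 3. The part of library composition in the Krtap result was not tested.

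The log2 fold change of CRS against CON was above 0 in 56 of 56 members, where 32.2% of all genes tested were above 0. It is the difference of mean log2(FPKM + 0.1) as fitted with limma. Its median over members was 1.41, with a range of 0.63 to 1.91, while the median over all genes was −0.20, and 52 of 56 members exceeded 1 against 3.78% of all genes. No member passed an adjusted p of 0.05 (limma, Benjamini-Hochberg over all genes), and the background was 0% of genes, since no gene of the series passed. All 56 members had an adjusted p of 0.9999. At an unadjusted p under 0.05 (limma), 19 members were higher in CRS and 0 lower, against 0.919% of all genes higher and 1.63% lower. In 14 members the 3 CRS values all lay above the 3 CON values, against 1.65% of all genes, and in 0 members all below, against 5.19%.

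The standard error of the log2 fold change ran from 0.41 to 1.49 over members, with a median of 0.69. The exact two-sided permutation test of 3 against 3 cannot go below p = 0.1, so it cannot pass 0.05 for any member. The members vary together within a mouse, so their counts are not 56 separate observations. Without CON replicate 1, the library rich in muscle RNA, 55 of 56 members stayed above 0 and the median was 0.92. In that fit 4 members had an unadjusted p under 0.05 (limma), against 0.564% of all genes higher in CRS. Krtap5-2, named after its values were seen, was then at −0.43, and it was at −0.26 without CRS replicate 1, the other alternative in which a member was below 0. With single libraries left out, 3 to 33 members had an unadjusted p under 0.05 (limma), against 0.557% to 2.49% of all genes higher in CRS.

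**Figure D1:**
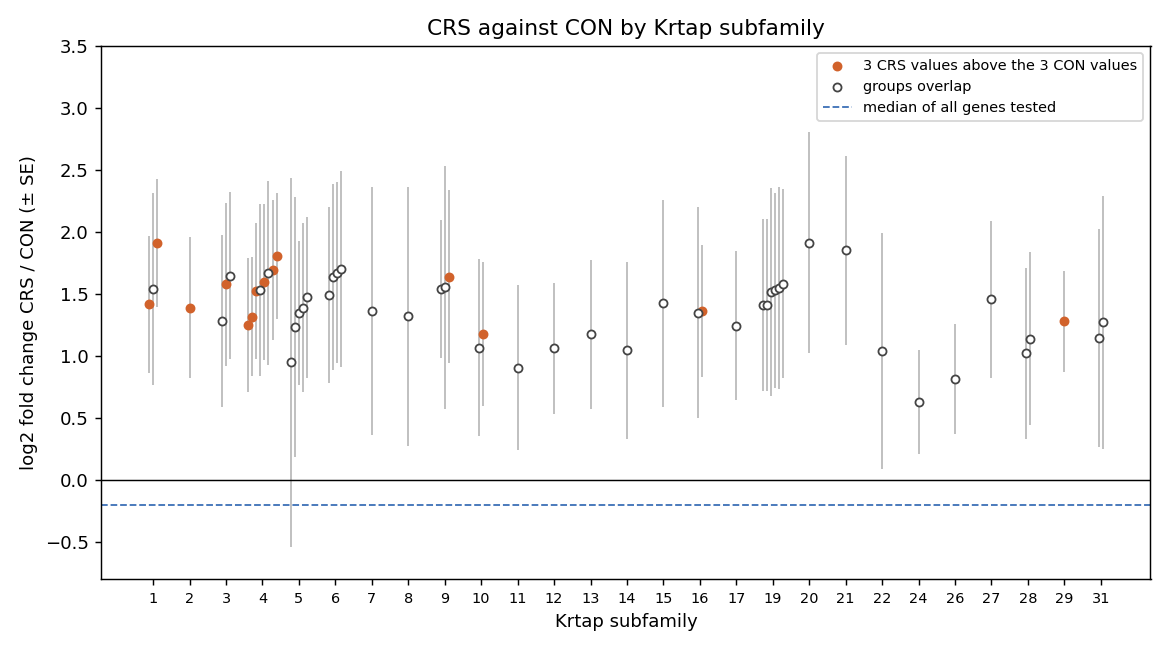
Log2 fold change of CRS against CON (vertical axis, with standard errors as grey lines) for the 56 members by subfamily number (horizontal axis); filled points mark the 14 members whose CRS values all lay above the CON values, and the dashed line the median of all genes tested. All 56 points lie above 0 and above the dashed line at −0.20, and most filled points are in subfamilies 1 and 4.

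Levels per exon length differed widely between members. By mean FPKM, 18 members were at 1000 or above, 20 between 100 and 1000, and 18 below 100. Krtap8-1 and Krtap7-1 alone made up 28.3% of the summed level. The number of fragments behind a value ran from 6 to 292420, and 49 of 56 members had at least 100 in every library; the other 7 were Krtap4-13, Krtap5-2, Krtap5-3, Krtap9-5, Krtap20-2, Krtap29-1 and Krtap31-2.

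Gene copies within the family are close in sequence, which limits how well reads can be assigned. Of 56 members, 23 shared at least 10% of their 50-base words with the transcripts of another gene, 41 shared some, and 15 shared none. The most shared were Krtap4-13 with 81.3%, Krtap5-1 with 54.3%, Krtap10-10 with 44.1%, Krtap2-4 with 43.8%, Krtap10-4 with 42.0%, Krtap31-2 with 41.5% and Krtap3-3 with 41.3%. The split of fragments between these and their copies is uncertain. Krtap8-1, Krtap7-1, Krtap11-1, Krtap22-2, Krtap19-4, Krtap16-1 and Krtap29-1 shared none.

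**Figure D2:**
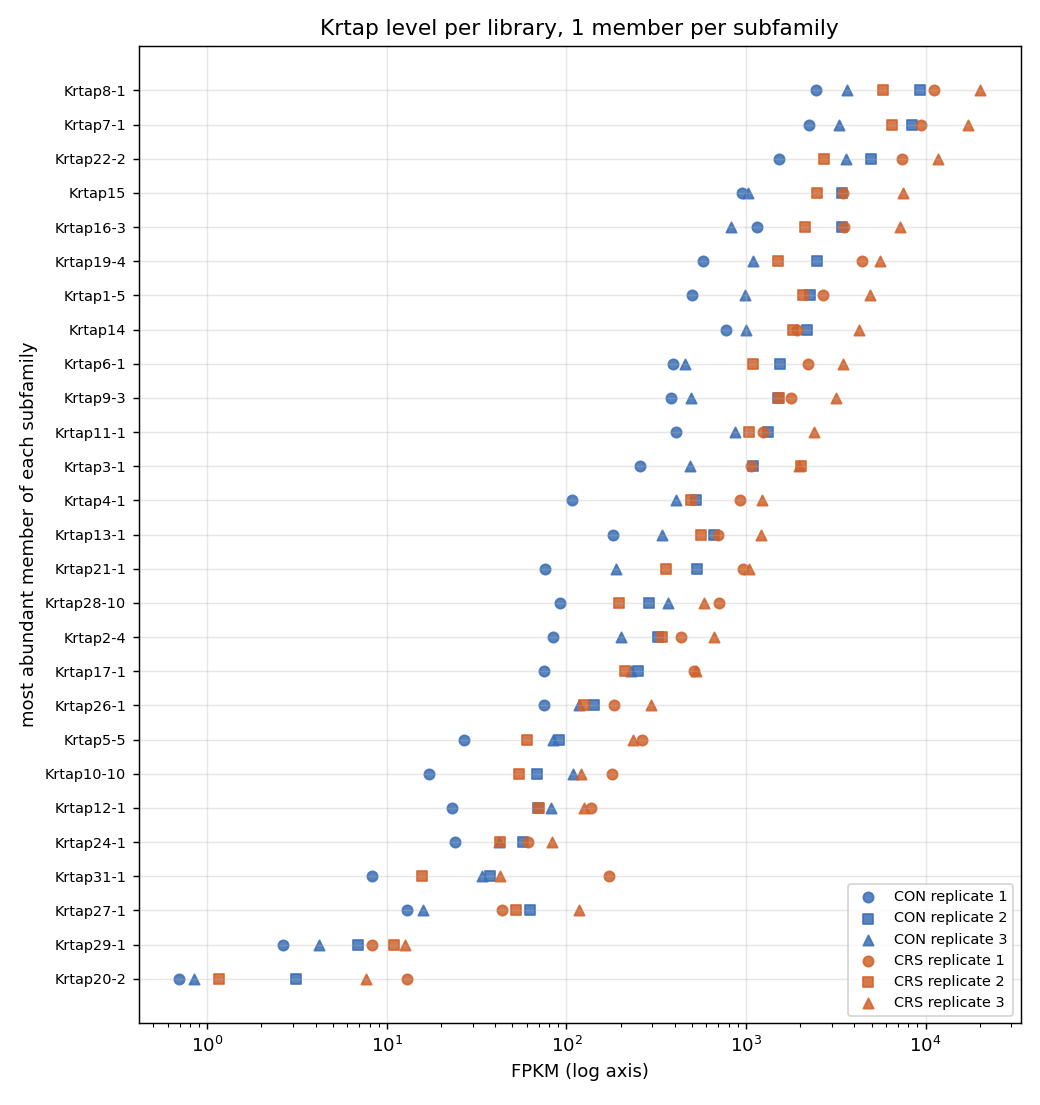
FPKM per library (horizontal log axis) of the most abundant member of each of the 27 subfamilies (vertical axis), with CON in blue and CRS in orange and a marker shape for each replicate number. CON replicate 1 is the lowest point in all but 1 line, Krtap16-3, and the square of CRS replicate 2 lies among the control points in most lines.

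The high glycine-tyrosine proteins, small proteins that fill the shaft's cortex, were the most abundant class. The classes were assigned by subfamily after the values were seen, except that Krtap16-1 was classed as high-sulfur apart from Krtap16-3. Their 15 members held 56.8% of the summed Krtap FPKM in CRS replicate 2 and up to 66.1% in CRS replicate 1. All 15 had a log2 fold change above 0, with a median of 1.53 (1.11 without CON replicate 1) and a range of 1.04 to 1.91. An unadjusted p under 0.05 (limma) was found in 2, against 0.919% of all genes higher in CRS. In 0 of 15 did the groups separate, against 1.65% of all genes with CRS above CON. In all 15, CRS replicates 1 and 3 lay above every control, while CRS replicate 2 lay below CON replicate 2.

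Krtap8-1 stood at 2457, 9336 and 3659 FPKM in the controls and 11185, 5781 and 20213 FPKM under CRS. The log2 fold change was 1.32 ± 1.05 (SE), or 0.90 without CON replicate 1. The values were high in CRS replicates 1 and 3 and in CON replicate 2, and CRS replicate 2 lay between the controls. Krtap7-1, the sole member of its subfamily, read 2228, 8431 and 3292 FPKM in the controls and 9373, 6495 and 17318 FPKM under CRS, a log2 fold change of 1.36 ± 1.00 (SE), or 0.95 without CON replicate 1. Krtap22-2 read 1522, 4985 and 3583 FPKM in the controls and 7394, 2707 and 11778 FPKM under CRS. Here CRS replicate 2 lay below CON replicates 2 and 3, and the log2 fold change was 1.04 ± 0.95 (SE), or 0.55 without CON replicate 1.

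The Krtap19 subfamily, with 6 members in the chromosome 16 cluster, summed to 2868, 10874 and 4242 FPKM in the controls and 16945, 7374 and 25023 FPKM under CRS. Its fold changes lay close together, from 1.41 to 1.58 on the log2 scale. The most abundant of them, Krtap19-4, read 579, 2473 and 1097 FPKM in the controls and 4435, 1500.2 and 5576 FPKM under CRS. Krtap6-1, the leading member of the 4 in subfamily 6, read 391, 1548 and 459 FPKM in the controls and 2206, 1095 and 3449 FPKM under CRS. In both genes CRS replicate 2 lay below CON replicate 2.

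The highest fold changes in the class belonged to 2 members of low or middle level. Krtap21-1 read 75.8, 532 and 189 FPKM in the controls and 967, 358 and 1041 FPKM under CRS, a log2 fold change of 1.85 ± 0.76 (SE), or 1.16 without CON replicate 1, with CRS replicate 2 below CON replicate 2. Krtap20-2 read 0.693, 3.10 and 0.845 FPKM in the controls and 12.95, 1.16 and 7.65 FPKM under CRS, a log2 fold change of 1.91 ± 0.89 (SE), or 1.53 without CON replicate 1. Its values in CON replicates 1 and 3 rest on few fragments, with 6 as the gene's lowest count, so leaving out CON replicate 1 does not remove this limit. The log2(FPKM + 0.1) scale understates changes at such levels.

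The high-sulfur proteins, cysteine-rich proteins of the cortex and cuticle, held 11.8% to 19.3% of the summed Krtap FPKM as classed here, with the highest share in CRS replicate 2. Members left without a class held 13.9% to 19.3%, so another assignment could change this share. The 13 high-sulfur members had a median log2 fold change of 1.39 (0.86 without CON replicate 1). Of them, 7 had an unadjusted p under 0.05 (limma), against 0.919% of all genes higher in CRS. In 5 the CRS values all lay above CON, against 1.65% of all genes. These 5 were Krtap1-3, Krtap1-4, Krtap2-4, Krtap3-3 and Krtap16-1.

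Krtap1-4 had the lowest p of all 56 members, and with Krtap20-2 it was at the upper end of the fold changes. It read 35.3, 134 and 42.6 FPKM in the controls and 202, 238 and 224 FPKM under CRS, so that the 3 CRS values stood close together and above every control. The log2 fold change was 1.91 ± 0.51 (SE), or 1.55 without CON replicate 1. With all libraries the unadjusted p was 0.0053 and the adjusted p 0.9999 (limma). Krtap1-5, the most abundant of its subfamily, read 497, 2277 and 985 FPKM in the controls and 2689.9, 2083 and 4914 FPKM under CRS. In that gene CRS replicate 2 lay just under CON replicate 2.

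Krtap3-1 read 258, 1099 and 485 FPKM in the controls and 1067, 2019 and 1968 FPKM under CRS. It differed from most members in that CRS replicate 2 was the highest library and CRS replicate 1 lay under CON replicate 2. Krtap2-4 read 84.1, 325 and 200.5 FPKM in the controls and 435, 343 and 663 FPKM under CRS, with CRS replicate 2 just above CON replicate 2. Krtap16-1, chosen after its values were seen, read 10.3, 35.6 and 45.7 FPKM in the controls and 64.7, 76.1 and 58.5 FPKM under CRS. It separated the groups at a low level and was likewise highest in CRS replicate 2.

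Krtap11-1, Krtap24-1 and Krtap26-1 had the lowest log2 fold changes of the family. Krtap11-1 read 407, 1331 and 866 FPKM in the controls and 1239, 1042 and 2402 FPKM under CRS, a log2 fold change of 0.91 ± 0.66 (SE), or 0.44 without CON replicate 1, and the groups overlapped. Krtap24-1 read 24.1, 57.1 and 42.2 FPKM in the controls and 61.04, 42.6 and 83.01 FPKM under CRS, a log2 fold change of 0.63 ± 0.42 (SE), or 0.29 without CON replicate 1. Krtap26-1 read 74.5, 143 and 118 FPKM in the controls and 183, 126 and 296 FPKM under CRS, a log2 fold change of 0.82 ± 0.44 (SE), or 0.55 without CON replicate 1. These 3 genes and Krtap13-1 and Krtap27-1 are the high-sulfur members on chromosome 16, and the other 8 lie on chromosome 11. Krtap13-1 read 182, 663 and 341 FPKM in the controls and 696, 563 and 1209 FPKM under CRS. Krtap27-1 read 12.9, 62.4 and 15.8 FPKM in the controls and 43.6, 52.3 and 117 FPKM under CRS, and CRS replicate 1 was its lowest CRS library, below CON replicate 2.

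The ultra-high-sulfur proteins, the most cysteine-rich of the family, held 5.69% to 8.42% of the summed Krtap FPKM. Their 17 members had a median log2 fold change of 1.53 (0.82 without CON replicate 1). Of the 17, 9 had an unadjusted p under 0.05 (limma), against 0.919% of all genes higher in CRS. In 7 the CRS values all lay above CON, against 1.65% of all genes. Of those 7, 6 belong to subfamily 4 and 1, Krtap9-3, to subfamily 9.

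Subfamily 4, with 8 members side by side on chromosome 11, summed to 327, 1533 and 1183 FPKM in the controls and 2949.6, 1598 and 3328 FPKM under CRS. Krtap4-6 read 24.8, 104 and 49.9 FPKM in the controls and 179, 158 and 196 FPKM under CRS, a log2 fold change of 1.81 ± 0.51 (SE), or 1.29 without CON replicate 1. With all libraries its unadjusted p was 0.0070 (limma). Krtap4-16 read 31.6, 127 and 93.3 FPKM in the controls and 246, 144 and 252 FPKM under CRS, and Krtap4-8 read 19.1, 60.9 and 61.8 FPKM in the controls and 110.3, 90.6 and 112 FPKM under CRS. In all 3 genes every CRS library lay above every control, by a small margin for CRS replicate 2 in Krtap4-16. Krtap4-13 also separated, at 0.649, 2.46 and 1.85 FPKM in the controls and 7.59, 5.34 and 2.92 FPKM under CRS, but it rests on few fragments and shares most of its sequence with other genes. Krtap4-1, the most abundant, read 108, 528 and 409.7 FPKM in the controls and 927, 495 and 1233 FPKM under CRS and did not separate, since CRS replicate 2 lay just under CON replicate 2.

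Krtap9-3 read 381, 1499.9 and 495 FPKM in the controls and 1781, 1527 and 3161 FPKM under CRS. Its CRS replicate 2 exceeded CON replicate 2 by little. Krtap17-1 read 75.2, 250.4 and 228 FPKM in the controls and 516, 212 and 524 FPKM under CRS, with CRS replicate 2 below CON replicates 2 and 3.

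Subfamily 5, with 5 members on chromosome 7, showed wide differences between mice of 1 group. Krtap5-5, its most abundant member, read 26.7, 91.2 and 83.9 FPKM in the controls and 264, 60.00 and 233 FPKM under CRS. Krtap5-2, chosen after its values were seen, read 0.935, 20.5 and 16.1 FPKM in the controls and 72.1, 1.53 and 20.9 FPKM under CRS. There CRS replicate 2 was near the lowest control and CRS replicate 1 was far above all other libraries. Krtap5-3, chosen likewise, read 1.47, 12.3 and 11.7 FPKM in the controls and 44.1, 3.25 and 19.98 FPKM under CRS. The standard errors of these 2 genes, 1.49 and 1.05 on the log2 scale, were above their log2 fold change of 0.95 for Krtap5-2 and near that of 1.23 for Krtap5-3, which was 0.25 without CON replicate 1.

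The other 11 members were not placed in a class. Their median log2 fold change was 1.14 (0.49 without CON replicate 1). Of the 11, 1 had an unadjusted p under 0.05 (limma), against 0.919% of all genes higher in CRS. In 2, Krtap29-1 and Krtap10-4, the CRS values all lay above CON, against 1.65% of all genes. Krtap29-1 read 2.62, 6.87 and 4.17 FPKM in the controls and 8.24, 10.9 and 12.6 FPKM under CRS, a log2 fold change of 1.28 ± 0.41 (SE), or 0.95 without CON replicate 1. It is a low gene with no shared sequence, and its 3 CRS values stood above the controls by a narrow margin.

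Krtap15, Krtap16-3 and Krtap14 were the abundant genes among these. Krtap15 read 952, 3412 and 1028 FPKM in the controls and 3477, 2496 and 7444 FPKM under CRS. Krtap16-3 read 1149, 3429 and 829.8 FPKM in the controls and 3522, 2130.0 and 7245 FPKM under CRS, and it was the only member of the family whose lowest library was CON replicate 3. Krtap14 read 777, 2189 and 995 FPKM in the controls and 1925, 1824 and 4242 FPKM under CRS. In all 3 genes CRS replicate 3 was highest and CRS replicate 2 lay below CON replicate 2.

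Krtap31-1 read 8.26, 37.7 and 33.9 FPKM in the controls and 172, 15.7 and 42.6 FPKM under CRS. Krtap31-2, chosen after its values were seen, read 3.79, 30.7 and 18.3 FPKM in the controls and 129, 8.85 and 26.9 FPKM under CRS. These close copies were both far higher in CRS replicate 1 than in any other library, and their CRS replicate 2 values lay below CON replicates 2 and 3. Krtap28-10 read 91.7, 288 and 369 FPKM in the controls and 709.9, 196 and 585 FPKM under CRS, Krtap12-1 read 22.9, 69.1 and 82.5 FPKM in the controls and 137, 69.9 and 125 FPKM under CRS, and Krtap10-10 read 17.1, 68.3 and 109 FPKM in the controls and 179, 54.1 and 121 FPKM under CRS. In these 3 genes, which lie on chromosomes 1 and 10, CON replicate 3 was the highest control.

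The members lie in clusters on 5 chromosomes: 23 on chromosome 11, 23 on chromosome 16, 5 on chromosome 7, 3 on chromosome 10 and 2 on chromosome 1. Chromosome 16 held 75.3% to 84.7% of the summed Krtap FPKM, and chromosome 11 13.6% to 23.2%, with the highest share of chromosome 11 in CRS replicate 2. On chromosome 11, 13 of 23 members had groups that did not overlap and 15 had an unadjusted p under 0.05 (limma), with a median log2 fold change of 1.53 (0.93 without CON replicate 1). On chromosome 16, 0 of 23 did not overlap and 3 had an unadjusted p under 0.05, with a median of 1.42 (1.04 without CON replicate 1). Of all genes, 1.65% had CRS values all above CON, and 0.919% had such a p, higher in CRS. These counts were taken with CON replicate 1. The separation of groups on chromosome 11 goes with the level of CRS replicate 2. The difference between the clusters was not tested, and all members were read in the same libraries.

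**Figure D3:**
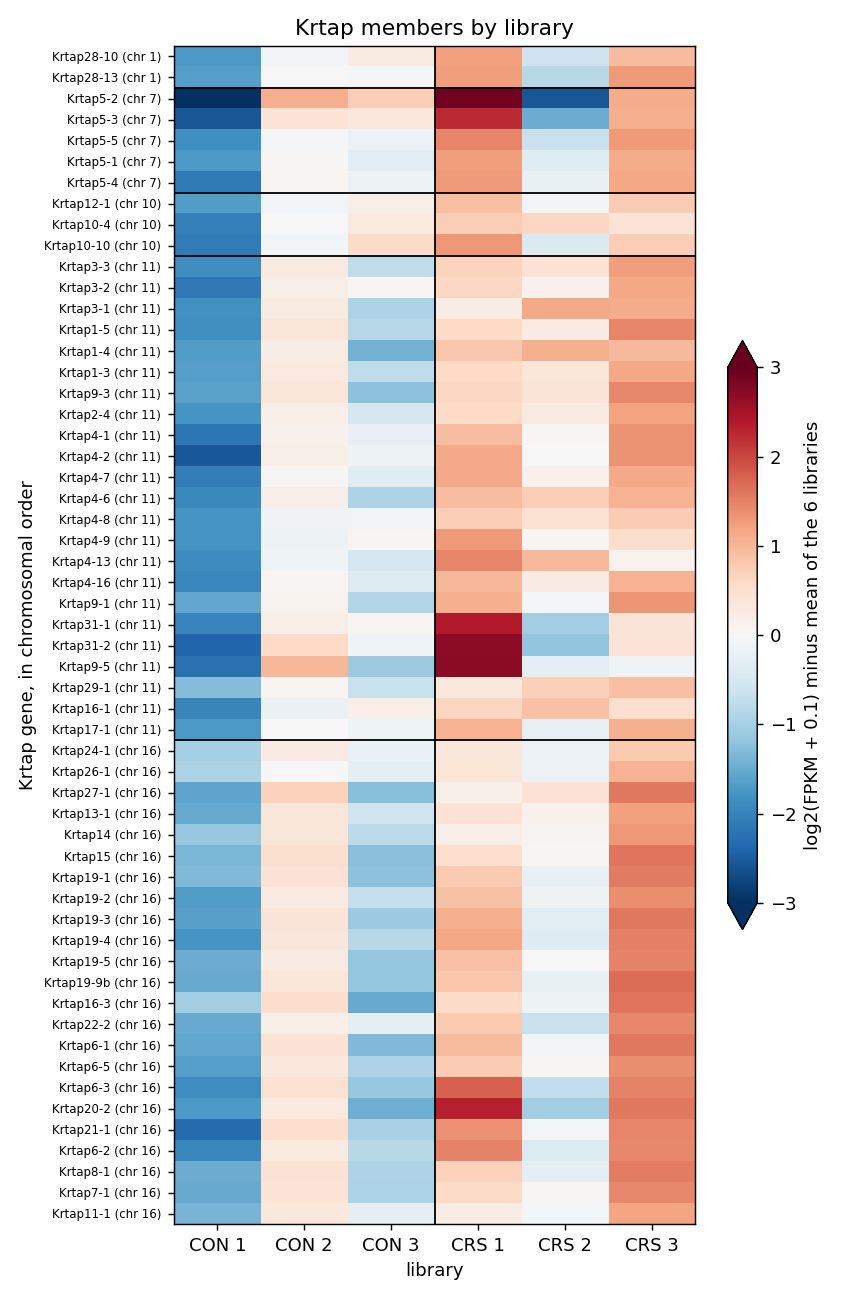
Log2(FPKM + 0.1) of each member minus its mean over the 6 libraries (colour scale, blue below and red above the mean, clipped at −3 and 3), by library (columns) and in chromosomal order (rows, with lines between chromosomes). The CON replicate 1 column is blue throughout, the CRS replicate 3 column is red in nearly every row, and the CRS replicate 2 column is red for part of the chromosome 11 rows and pale or blue for most chromosome 16 rows.

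Most members shared the library at the low end and that at the high end. CON replicate 1 held the lowest of the 6 values in 55 of 56 members, against 9.19% of all genes tested. CRS replicate 3 held the highest in 36, against 5.44% of all genes, CRS replicate 1 in 17 and CRS replicate 2 in 3. CRS replicates 1 and 3 both lay above every control in 50 members; the exceptions were Krtap3-1, Krtap9-5, Krtap11-1, Krtap14, Krtap27-1 and Krtap31-2.

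CRS replicate 2 was the exception among the stressed mice. It was the lowest CRS library in 49 of 56 members, lay below CON replicate 2 in 40 and below CON replicate 3 in 13, and lay above all 3 controls in 15. CON replicate 2 was the highest control in 49 members and CON replicate 3 in the other 7. Without CRS replicate 2, 50 members had groups that did not overlap, against 7.46% of all genes, and without CON replicate 2, 43 did, against 4.41%. The first of these restates that CRS replicates 1 and 3 lay above every control in 50. The count of separated members therefore rests on these 2 libraries.

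The classes differed in how far CRS replicates 1 and 2 lay apart. The log2 ratio of CRS replicate 1 to CRS replicate 2 had a median of 0.25 over the 13 high-sulfur members, with a range of −0.92 to 0.54. It had a median of 1.05 over the 15 high glycine-tyrosine members, ranging from 0.53 to 3.37, and of 1.13 over the 17 ultra-high-sulfur members, ranging from 0.18 to 5.47. As classed here, the high-sulfur median was thus nearer to level between these mice, though Krtap3-1 was lower in CRS replicate 1. All members of the glycine-tyrosine and ultra-high-sulfur classes were higher there. This depends on the assignment. Krtap10-10 with 1.73 and Krtap12-1 with 0.97, both left without a class, would widen the high-sulfur range if placed in it. The 11 members without a class had a median of 0.97, ranging from −0.40 to 3.85. The members at the upper end were Krtap5-2 with 5.47, Krtap31-2 with 3.85, Krtap5-3 with 3.72, Krtap31-1 with 3.44, Krtap20-2 with 3.37 and Krtap9-5 with 3.00. At the lower end were Krtap3-1 with −0.92, Krtap29-1 with −0.40, Krtap27-1 with −0.26, Krtap1-4 with −0.24 and Krtap16-1 with −0.23. These members were picked for their values, and each ratio compares 2 mice only.

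Between the controls the order of the classes was another. The log2 ratio of CON replicate 3 to CON replicate 1 had a median of 1.65 over the ultra-high-sulfur members, 0.91 over the high-sulfur members and 0.57 over the high glycine-tyrosine members. Within the last class it ran from 0.10 to 1.32. The log2 ratio of CON replicate 2 to CON replicate 1 had medians of 1.999, 1.94 and 1.97 for the same classes, which lie close together. Across the 56 members, the log2 ratio of CRS replicate 1 to CRS replicate 2 was set beside that of CON replicate 2 to CON replicate 1. The Pearson r was 0.63 and the Spearman rho 0.28. This was the highest Pearson r of the pairs of ratios taken. The other pairs had r of 0.49, 0.34 and 0.31, with rho of 0.36, 0.14 and 0.51. The members share libraries and clusters, so these values are a description.

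**Figure D4:**
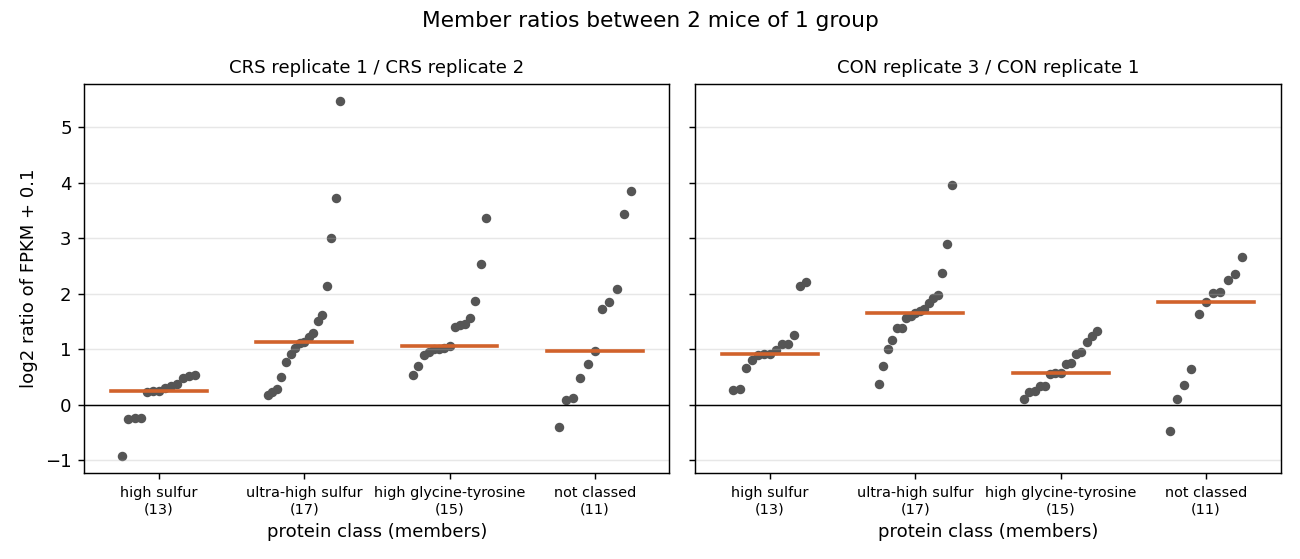
Log2 ratio of FPKM + 0.1 between 2 mice of the same group (vertical axis) for each member, by protein class (horizontal axis), with CRS replicate 1 over CRS replicate 2 on the left and CON replicate 3 over CON replicate 1 on the right; bars are class medians. On the left the high-sulfur median of 0.25 lies below the others, and on the right the ultra-high-sulfur median of 1.65 lies above the high glycine-tyrosine median of 0.57.

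The hair shaft keratins, the filament proteins to which the Krtap proteins bind, were set beside them. Of 16 listed, 15 were analysed here, 14 had a log2 fold change above 0 and 4 an unadjusted p under 0.05, higher (limma), with a median of 1.06 (0.62 without CON replicate 1) and 0 at an adjusted p of 0.05. The share of all genes with such an unadjusted p, higher, was 0.919%. In 5 the groups did not overlap, with CRS above CON, against 1.65% of all genes. The levels of the 15 summed to 2223, 7072 and 4521 FPKM in the controls and 6618, 8194 and 12471 FPKM under CRS. Krt34, the most abundant of them and a keratin of the cortex, read 240.1, 998 and 779 FPKM in the controls and 1208, 1010.0 and 2001 FPKM under CRS, and its groups did not overlap. Krt84 read 5.83, 33.6 and 17.5 FPKM in the controls and 50.7, 49.6 and 58.3 FPKM under CRS, with all CRS values above the controls. Krt35, a keratin made early in the matrix and the only listed one below 0, read 232, 313 and 267 FPKM in the controls and 143, 303 and 255 FPKM under CRS and was named after its values were seen.

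The ratio of summed Krtap to summed hair keratin FPKM was 7.24, 8.41 and 5.89 in CON and 11.8, 5.46 and 10.2 in CRS. The means were 7.18 ± 1.26 (SD, n = 3) and 9.17 ± 3.30 (SD, n = 3), and the groups overlapped. In CRS replicates 1 and 3 the summed Krtap level was thus higher for a given keratin sum than in any control. In CRS replicate 2 it was lower than in any control. The high glycine-tyrosine class made up 56.8% to 66.1% of the Krtap sum, and the ratio was not taken by class. It therefore need not hold for the sulfur-rich classes. CRS replicate 2 had a hair keratin sum above all 3 controls while its Krtap sum lay below that of CON replicate 2.

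**Figure D5:**
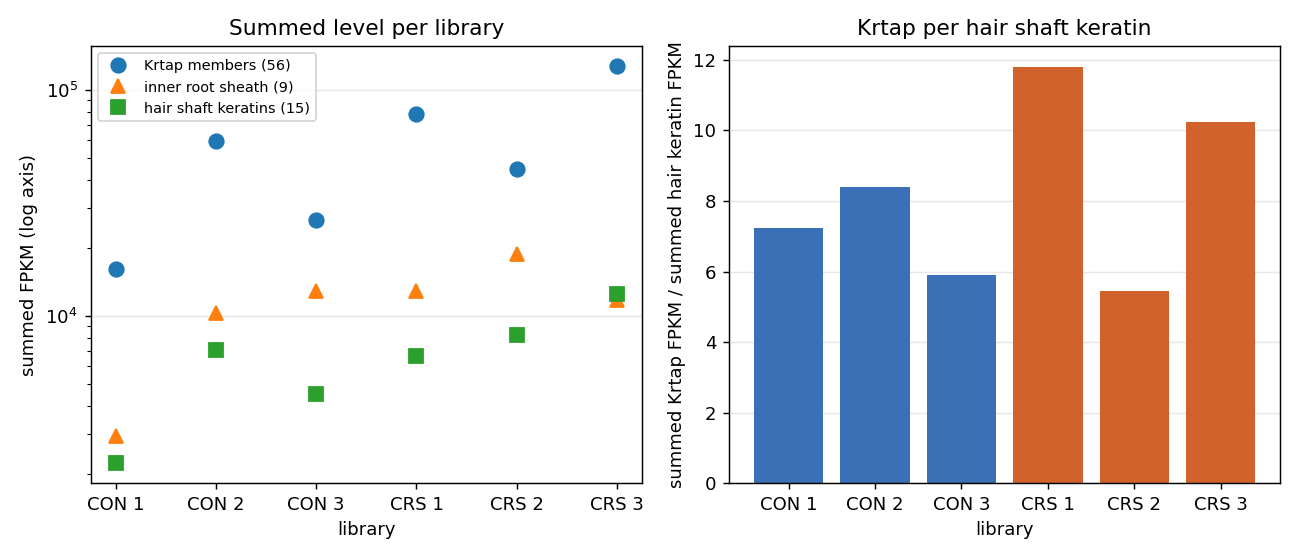
Left, summed FPKM (log axis) of the 56 Krtap members, 15 hair shaft keratins and 9 inner root sheath genes in each library; right, summed Krtap FPKM divided by summed hair keratin FPKM in each library, as bars from 0 with CON in blue and CRS in orange. CON replicate 1 is lowest in all 3 sums, and the ratio is highest in CRS replicate 1 at 11.8 and lowest in CRS replicate 2 at 5.46.

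The inner root sheath, the layer that moulds the growing shaft, makes no keratin-associated proteins of this kind and served as another part of the follicle. Its 9 listed genes all had a log2 fold change above 0, with a median of 0.95, but without CON replicate 1 this held for 7 of 9 and the median was 0.17. Of the 9, 0 had an unadjusted p under 0.05 (limma), against 0.919% of all genes higher in CRS. In 4 the CRS values all lay above the controls, against 1.65% of all genes. The 9 genes summed to 2937, 10290 and 12900 FPKM in the controls and 12863, 18778 and 11798 FPKM under CRS. In contrast to the Krtap genes, CRS replicate 2 was the highest library there and CON replicate 3 was close to CRS replicates 1 and 3. Of 8 other hair shaft genes, 7 were above 0 and the median was 1.19 (0.66 without CON replicate 1). An unadjusted p under 0.05, higher (limma), was found in 3, against 0.919% of all genes. Gprc5d, a receptor gene of the keratinizing shaft, read 139, 467 and 229.8 FPKM in the controls and 589, 477 and 922 FPKM under CRS, and its groups did not overlap.

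Among regulators of hair differentiation, 3 of 17 listed were above 0 and 14 (82.4%) below, where 67.8% of all genes tested were below 0. Their median was −0.43 and that of all genes −0.20. Of the 17, 0 had an unadjusted p under 0.05 higher and 1 lower (limma), against 0.919% and 1.63% of all genes. With median-ratio scaling 12 of 17 were below 0 against 49.6% of all genes, and the median was −0.20 where that of all genes was near 0. Hoxc13, a transcription factor known to control Krtap and hair keratin genes and named after its values were seen, read 68.8, 58.1 and 94.1 FPKM in the controls and 40.1, 66.2 and 44.1 FPKM under CRS. Its groups overlapped, with a log2 fold change of −0.56 ± 0.35 (SE). Lef1, the Wnt effector of the matrix and of the precortex, read 12.1, 6.96 and 14.1 FPKM in the controls and 4.23, 9.07 and 3.82 FPKM under CRS. In both genes CRS replicate 2 lay within the range of the controls or close to it.

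Cell cycle genes, which mark the dividing matrix of a growing follicle and other dividing cells, had a log2 fold change below 0 in 12 of 12, against 67.8% of all genes, with a median of −0.82. Of these, 5 had an unadjusted p under 0.05 (limma), against 1.63% of all genes, and in the same 5 all CRS values lay below the controls, against 5.19%. None passed the adjusted threshold. Cdk1, the kinase that starts mitosis, read 13.3, 12.4 and 11.6 FPKM in the controls and 5.94, 6.22 and 7.27 FPKM under CRS. In this gene all 3 CRS values lay below the controls. CRS replicate 2 stood apart in the list as a whole: it was the highest CRS library in 8 of 12 genes and lay above the lowest control in 7 of 12, while CRS replicates 1 and 3 did so in 0 of 12.

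Markers of other tissues differed between the same libraries. The 8 skeletal muscle markers summed to 11283, 1243 and 2286 FPKM in the controls and 323, 2300 and 616 FPKM under CRS, with a median log2 fold change of −2.14, and 8 of 8 were below 0. The library with the most muscle RNA had the least Krtap RNA, and CRS replicates 1 and 3, with the most Krtap RNA, had the least muscle RNA. The mitochondrially encoded genes, 13 of 13 below 0 with a median of −1.39, summed to 118144, 30193 and 23546 FPKM in the controls and 15344, 18902 and 19570 FPKM under CRS. The 8 markers of the epidermis between follicles were all above 0, with a median of 0.54, and the 6 sebaceous gland markers with a median of 0.84. Without CON replicate 1, 6 of 8 epidermis markers were above 0 with a median of 0.30, and the sebaceous gland median was 0.96. The muscle median was then −1.20 and the mitochondrial median −0.42. The part of these tissues in the Krtap result was not tested. With CON replicate 1 and CRS replicate 2 both left out, which was chosen after their Krtap values were seen, the median Krtap log2 fold change was 1.27. The lowest adjusted p of a member was then 0.297 (limma), and 13.6% of all genes had an unadjusted p under 0.05.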

How the data were processed

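The deposited values are FPKM, 1 file per library. Per the submitters' processing notes, HISAT2 aligned the reads to GRCm39. Versions, the annotation, the program that counted, strandedness and read length are not given in the sources used here, so overlapping antisense genes cannot be told apart from members. GENCODE M21, which annotates GRCm38, held 54079 of the 54146 IDs and supplied symbols, types and exon lengths. For this reason no gene coordinates are given apart from those of the RefSeq promoter table (GRCm38.p6).

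FPKM times exon length gave whole fragments within 0.05 for 98.1% to 98.3% of values up to 100 fragments per library, which gave the depths. All 28389 genes whose mean reached 0.1 FPKM were tested as log2(FPKM + 0.1) with limma 3.58.1 (R 4.3.3), two-sided, with a mean-variance trend and Benjamini-Hochberg adjustment over all genes. This scale understates the fold changes of low genes. The fit was tested on simulated data. Replicates are taken as separate mice from the series' design text. If they were not, p-values measure technical spread only.

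The members and lists were chosen with earlier results of these data known. Genes named were the most abundant member of each subfamily, the 6 members of lowest unadjusted p whose groups did not overlap, the 3 members of lowest log2 fold change, and up to 3 genes of lowest p plus the most abundant per list. Others are said to have been chosen after their values were seen, and so were members named only in counts or ends of a range. Protein classes were assigned by subfamily from general knowledge after the values were seen. Krtap16-1 alone was placed by gene, as high-sulfur, while Krtap16-3 of its subfamily was left without a class. Another assignment, also of the 11 members without a class, could change the class values. Protein sequences were not used here. Promoters of 6 members were not matched. Alternatives were other pseudocounts, filters, scaling, variance models, array weights, a replicate block, voom on recovered fragments and libraries left out. Tables used pandas 2.3.3 under Python 3.11.15, and matplotlib 3.10.9 drew the figures.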

Additional observations from a re-analysis of the deposited data

How the results depend on the processing

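In none of the 16 alternatives did any gene pass an adjusted p of 0.05 with limma. The unadjusted counts were 723 genes in the first fit and between 341 and 7634 in the alternatives, and the lowest adjusted p of a member was 0.090 with array weights. The median log2 fold change of the members ranged from 0.92 to 1.91 with single libraries left out, and of the 512 values of the 32 named members under the alternatives, 0 reversed. Krtap5-2, which is not among those 32, was at −0.43 without CON replicate 1 and −0.26 without CRS replicate 1. Median-ratio scaling moved the share of all genes above 0 from 32.2% to 50.4% and the median of all genes from −0.20 to about 0, and the members' median from 1.41 to 1.65. Relative to all genes, the members' median was 1.61 and 1.65 under the 2 scalings. Groups of 11 members did not overlap under median-ratio scaling, a count for which the share of all genes was not taken.

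Members at an unadjusted p under 0.05 (limma) numbered 19, but 50 with array weights. There 26.9% of all genes had such a p in either direction, and 3.91% had it higher in CRS. The count was 39 with voom on recovered fragments, against 1.96% of all genes in either direction and 0.768% higher in CRS. With the replicate block it was 9, against 2.21% in either direction and 0.902% higher. It was 3 to 33 with single libraries left out. There were 4 without CON replicate 1, 33 without CON replicate 2, 9 without CON replicate 3, 3 without CRS replicate 1, 26 without CRS replicate 2 and 4 without CRS replicate 3. The share of all genes with such a p in either direction was 2.55% with all libraries. It was 17.1% without CRS replicate 2 and 1.20% to 4.10% without any other. Counting only genes higher in CRS, it was 0.919% with all libraries. That share was 2.49% without CRS replicate 2 and 0.557% to 1.28% without any other. Members whose groups did not overlap numbered 14 to 50 with single libraries left out (43 without CON replicate 2, 50 without CRS replicate 2), and 50 with CON replicate 1 and CRS replicate 2 both left out, an alternative chosen after seeing the data, where 10.5% of all genes did so. The cause of these changes was not tested, apart from the fewer samples.

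Replicate numbers were not treated as pairs in the first fit. Deviations of same-numbered libraries had correlations of −0.12, 0.062 and 0.087, and those of different-numbered libraries ran from −0.29 to 0.30. With 3 libraries per group this cannot exclude a pairing. The replicate block changed no call at the adjusted threshold. Depth limits 7 members, which had under 100 fragments in some library.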

Other observations

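A further set of genes carries Krtap sequence without a Krtap symbol. In the annotation, 51 protein-coding genes named by clone or model number shared at least 20 words of 50 bases with a member, and 50 of them were tested. The log2 fold change of CRS against CON was above 0 in 50 of 50, with a median of 1.34 and a range of 0.59 to 2.39, while the members' median was 1.41. Of these genes, 28 had an unadjusted p under 0.05 (limma), higher in CRS, against 0.919% of all genes, and 0 passed an adjusted p of 0.05. The CRS values all lay above the CON values in 17, against 1.65% of all genes. CON replicate 1 was the lowest library in 49, against 9.19% of all genes, and the counts were not repeated without it. The genes of this set summed to 3110, 12190 and 6163 FPKM in the controls and 19789, 9583 and 27061 FPKM under CRS. Gm10229, which shares most with Krtap6-1, read 1274, 5199 and 1748 FPKM in the controls and 6438, 3103 and 11788 FPKM under CRS. These genes may receive fragments of the members and the members of them, so they are no independent support.

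Krtap19-9a, which the annotation lists as a processed pseudogene and which is therefore no member, read 1131, 3922 and 2010 FPKM in the controls and 7200, 2770 and 10373 FPKM under CRS. It would rank among the more abundant genes of the family at a mean of 4568 FPKM. Its order of libraries is that of most members, with CON replicate 1 lowest, CRS replicate 3 highest and CRS replicate 2 below CON replicate 2.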
